A study of Mus musculus with 18 samples.

Results

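Of 27392 nuclear regions of open chromatin counted in mouse spleen B and T cells, 364 (1.33%) held at least 1 count in every one of 18 libraries, and these 364 regions are described here. They were chosen by their measured values: a row of the deposited count table was taken when none of its 18 counts was 0, and the 4 mitochondrial regions were left out. The counts came from ATAC-seq, in which a transposase cuts and tags open DNA, carried out on fresh frozen spleen sections of wild-type C57BL/6J mice that carried no stated transgene or treatment. Immunostained B cells and T cells were cut out by laser capture microdissection, either as patches of tissue, about 1000 nuclei in all, or as 100 nuclei captured singly. There were 5 libraries of B patches, 5 of T patches, 4 of B cells at 100 nuclei and 4 of T cells at 100 nuclei. The labels call libraries of a group technical replicates and tie none to an animal. The p-values therefore rest on the spread among these libraries, which can share a mouse, and would be too small if read as statements about mice.

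Open chromatin marks DNA that transcription factors and RNA polymerase can reach. Promoters of genes that most cells use are commonly open in every cell type, often lie in CpG islands and often carry GC boxes, short motifs bound by Sp and Klf factors, or CCAAT boxes, bound by NF-Y. Enhancers more often differ between cell types, and the genes that give B and T lymphocytes their identity are largely controlled through such elements.

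The stretch of 150 bases before a start site is shown for 8 of the regions, since most of the 364 sit on promoters and these 8 carry the values given further on. Lnpep, Add3 and Tpst2 were among the highest per length, Nmt2, Klf13 and Atp2b1 among the most even over patch libraries, and Ell2 and Immp2l were higher in B cells. The sequences are RefSeq's for GRCm38.p6 (mm10 coordinates) and run 5′ to 3′ on the gene's strand. Capitals mark the GC box GGGCGG, the CCAAT box CCAAT and their reverse complements CCGCCC and ATTGG, and neighbouring matches can overlap.
Lnpep (chr17:17624490-17624639, minus strand): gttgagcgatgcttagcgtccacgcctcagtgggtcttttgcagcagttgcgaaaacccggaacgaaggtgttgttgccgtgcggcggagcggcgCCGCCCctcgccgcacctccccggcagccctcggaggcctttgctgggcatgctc
Add3 (chr19:53142606-53142755, plus strand): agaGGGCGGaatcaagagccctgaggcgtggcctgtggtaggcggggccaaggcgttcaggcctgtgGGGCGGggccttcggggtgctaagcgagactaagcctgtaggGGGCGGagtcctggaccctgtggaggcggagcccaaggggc
Tpst2 (chr5:112276595-112276744, plus strand): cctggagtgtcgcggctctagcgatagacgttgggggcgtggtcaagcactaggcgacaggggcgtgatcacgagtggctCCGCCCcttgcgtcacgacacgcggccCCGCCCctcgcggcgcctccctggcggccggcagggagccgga
Nmt2 (chr2:3284062-3284211, plus strand): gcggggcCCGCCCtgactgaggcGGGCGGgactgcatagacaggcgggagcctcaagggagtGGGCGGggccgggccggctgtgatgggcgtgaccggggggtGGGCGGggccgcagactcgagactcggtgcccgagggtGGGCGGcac
Klf13 (chr7:63938916-63939065, minus strand): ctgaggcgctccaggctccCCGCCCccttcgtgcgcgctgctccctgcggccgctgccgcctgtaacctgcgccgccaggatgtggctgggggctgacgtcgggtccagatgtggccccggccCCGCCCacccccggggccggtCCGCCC
Atp2b1 (chr10:98914492-98914641, plus strand): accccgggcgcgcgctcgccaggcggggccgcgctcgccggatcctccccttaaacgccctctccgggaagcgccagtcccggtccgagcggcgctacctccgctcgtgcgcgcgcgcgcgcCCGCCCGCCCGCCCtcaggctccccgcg
Ell2 (chr13:75707334-75707483, plus strand): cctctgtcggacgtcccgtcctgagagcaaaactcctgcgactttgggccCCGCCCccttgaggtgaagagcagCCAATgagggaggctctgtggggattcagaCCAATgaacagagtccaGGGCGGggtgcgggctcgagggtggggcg
Immp2l (chr12:41023940-41024089, plus strand): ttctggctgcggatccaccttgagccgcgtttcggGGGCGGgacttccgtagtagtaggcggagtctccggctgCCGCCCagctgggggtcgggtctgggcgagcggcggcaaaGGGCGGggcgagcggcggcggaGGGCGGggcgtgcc

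Each of the 8 stretches shown held a GC box, from 1 at Lnpep to 5 at Nmt2, and Ell2 also held 2 CCAAT boxes. GC content of the stretches shown ran from 64.7% at Ell2 to 81.3% at Atp2b1. Not every such stretch was alike. Those at Cap1, Nfkbia, Sp1 and Leprot, not shown, held 0, 1, 2 and 4 GC boxes. Cap1 also held 1 CCAAT box and Sp1 2. GC content was 58.0% at Cap1 and at Nfkbia, and 64.7% at Sp1 and at Leprot. A match is a string of letters and does not show that a factor was bound.

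In whole 300-base promoter windows, from 250 bases before a start site to 50 after it, those whose start site lay inside the 364 regions were rich in G and C. There were 386 such windows, some of them overlapping, with a median GC content of 64.7% (quartiles 59.7% and 69.0%) against 52.7% for the 32817 windows of the whole table. The ratio of observed to expected CpG, which is low where methylation has eroded the dinucleotide, had a median of 0.84 against 0.38, and it passed 0.6 in 91.5% of windows against 35.8%. A GC box on either strand was found in 83.7% of these windows and in 35.6% of all windows. A CCAAT box was found in 54.1% and 37.4%, the ETS site CCGGAAG in 17.6% and 8.86%, the CRE TGACGTCA in 3.63% and 1.79%, and the TATA box TATAAA in 5.18% and 13.6%.

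Much of this was shared with open promoters in general. The 8998 windows with a start site inside any nuclear region had a median GC content of 62.3% and a CpG ratio of 0.82. A GC box was in 71.0% of them, a CCAAT box in 40.7%, the ETS site in 22.5%, the CRE in 4.03% and the TATA box in 5.42%. The 983 windows inside regions read in 17 libraries were closest to those of the 364 regions, at 83.2% with a GC box and 53.6% with a CCAAT box. These shares are descriptions of letters in the windows, and no test was made of them.

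Whether a region was read in all libraries was set almost wholly at 100 nuclei, and there by the narrowest libraries: 368 nuclear regions were read in the 8 libraries of 100 nuclei, and 364 of them in the 10 patch libraries too. Patch libraries held 2193837 to 7343204 counts and had a count in 74.2% to 98.1% of regions. Libraries of 100 nuclei held 319481 to 1076765 counts and had a count in 3296 to 10950 regions. T libraries 3 and 4 of 100 nuclei stood apart from the other 16, with counts in 14.4% and 12.0% of regions. Of 964 regions read in 17 libraries, 448 were missing from T library 4 and 300 from T library 3. All 10 patch libraries read 13778 regions, and the commonest number of libraries with a count was 11, for 3580 regions. Among the 16 libraries other than T libraries 3 and 4, the same rule gave 1627 regions. Those had a median width of 675 bp, 84.4% of them lay within 1 kb of a gene end, and their median absolute log2 fold change between B and T patches was 0.217.

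**Figure D1:**
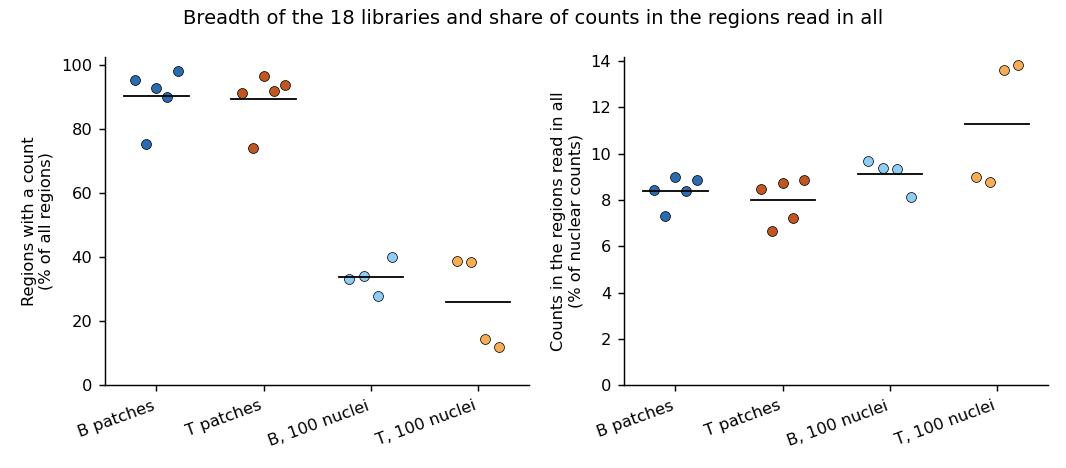
The left panel plots the share of regions with a count (% of all regions) in each library, and the right panel the share of nuclear counts that fell in the 364 regions. Each point is a library, lines are group means, and T libraries 3 and 4 of 100 nuclei are the pair at 14.4% and 12.0% on the left and at 13.6% and 13.8% on the right.

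The 364 regions, 1.33% of nuclear regions, took several times that share of the counts. Their share of nuclear counts was 8.40% ± 0.659 over B patches and 7.99% ± 0.978 over T patches (SD over 5 libraries). At 100 nuclei it was 9.12% ± 0.693 for B cells and 11.3% ± 2.79 for T cells (SD over 4 libraries). The T value was 8.98% and 8.76% in libraries 1 and 2, and 13.6% and 13.8% in the narrow libraries 3 and 4. Level was used by the rule, so these shares describe the choice and were not tested.

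Members with few counts at 100 nuclei and regions that missed the rule by 1 library are given here as examples from opposite ends of the count, picked for that, so their order is no finding. Over all regions read in 17 libraries the median level in patches was 101 normalized CPM against 155 for the members (CPM, counts scaled to the library). The lowest count of a member over the 18 libraries had a median of 19. It was 1 in 24 members and 10 or more in 260, and it fell at 100 nuclei in 360 of the 364. Ubap2l had the fewest counts among members over the 8 libraries of 100 nuclei, a sum of 233 with a lowest count of 1. Ubald2 summed to 282 and Nfkbil1 to 299. Outside the rule, Sf1, which encodes a splicing factor that binds the branch point, summed to 2094 but had 0 counts in T library 4, as did Rab8a at 2041. Slc39a10, a zinc transporter gene, summed to 1713 with 0 counts in T library 3.

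The regions were wide. Their median width was 782 bp (quartiles 648 and 928, range 213 to 1967) against 200 bp (quartiles 128 and 357) over all nuclear regions. None of 13689 regions under 200 bp was read in all libraries, 29 of 9831 (0.295%) at 200 to 500 bp, 132 of 2859 (4.62%) up to 750 bp, 148 of 853 (17.4%) up to 1000 bp, and 55 of 160 (34.4%) from there on. The 3 widest were at 4930526I15Rik (1967 bp), Klf13 (1397 bp), a Krüppel-like transcription factor gene, and Ep300 (1382 bp), which encodes the histone acetyltransferase p300. The narrowest were at 2310001H17Rik (213 bp), Gpr132 (269 bp), a receptor gene, and Trabd (278 bp). Among the 364, width and log2 level in patches went together, with Pearson's r of 0.634 and Spearman's rho of 0.591 across regions, which share their libraries and are not replicates. A wider region collects more counts at the same density, and the sources used here do not say how the region borders were drawn.

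**Figure D2:**
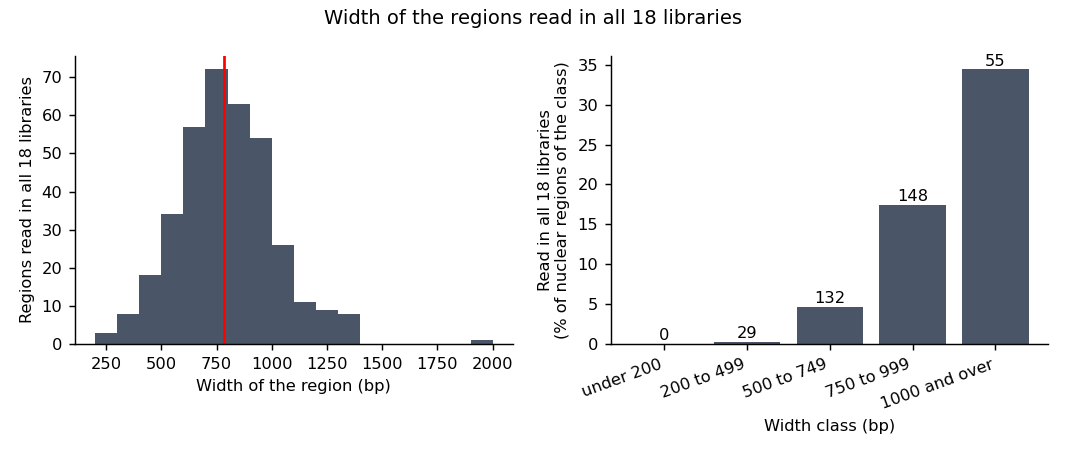
The left panel is a histogram of the widths (bp) of the 364 regions, with the median of 782 bp in red. The right panel gives the share of nuclear regions of each width class that were read in all 18 libraries, with their number above each bar, rising from 0 regions under 200 bp to 34.4% at 1000 bp and over.

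Most of the regions sat on promoters. A RefSeq start site lay inside 271 of the 364 (74.5%) against 26.4% of all nuclear regions, and a gene end lay inside 283 (77.7%) against 27.4%. Within 1 kb of a gene end were 316 (86.8%) against 51.3%. The start-site table is not complete, so start-site shares can be too low, for members and for all regions. By width class, a start site lay inside 65.5% of members and 35.2% of other regions at 200 to 500 bp. From 500 bp on the shares were close, at 69.7% and 73.2% up to 750 bp, 79.1% and 78.4% up to 1000 bp, and 78.2% of members against 79.4% of all regions from there on.

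Start sites on both strands lay inside 76 members (20.9%) against 3.86% of nuclear regions, and among regions with a start site the shares were 28.0% and 14.6%. Divergent promoters, which drive 2 genes in opposite directions from 1 open stretch, give such regions. The order of the start sites was not examined, so not all 76 need be divergent. Among the 76 was the promoter shared by Hspd1 and Hspe1, which encode the mitochondrial chaperonin and its co-chaperonin (chr1:55087497-55088530). In patches it stood at 194 ± 54.4 normalized CPM in B and 198 ± 62.9 in T (SD over 5 libraries, as for patch values below). Normalized CPM here are counts scaled to the total of the library, mitochondrial ones included, and by TMM factors within a capture size. A second was the promoter shared by Psmb9, an immunoproteasome subunit gene, and Tap1, a peptide transporter gene of antigen presentation (chr17:34186967-34187869). It stood at 137 ± 44.9 in B and 204 ± 31.4 in T. Every T patch library lay above every B patch library there, but the log2 fold change of B over T of −0.58 ± 0.26 (SE) did not pass the test (edgeR adjusted p = 0.331).

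**Figure D3:**
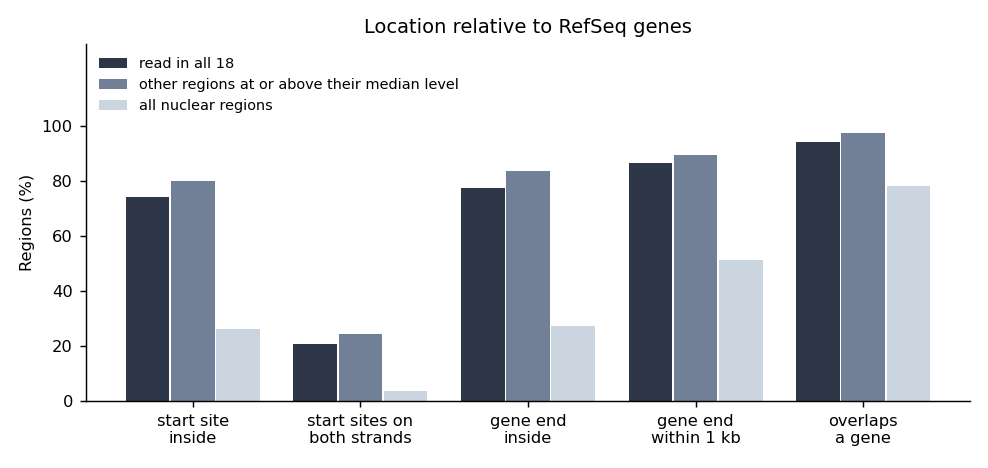
Bars give the share of regions (%) with each relation to RefSeq genes, for the 364 regions, for 266 other regions at or above the median level of the 364, and for all 27392 nuclear regions. The first 2 sets lie close together in every class, for example 74.5% and 80.1% with a start site inside, against 26.4% of all.

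The remaining 48 regions lay over 1 kb from any gene end. Of these 37 were inside a gene, 22 of them over a start site within it, and 11 were outside genes. The gene table gives gene ends only, so exons and introns were not told apart. The 11 lay up to 27.3 kb from the nearest end, that distance being at S1pr1, the receptor by which lymphocytes leave lymphoid organs (chr3:115682557-115683159). There the mean level in patches was 53.1 in B and 87.1 in T. One lay 21.9 kb from Ptma (chr1:86503902-86504610), which encodes prothymosin alpha, and one 8.39 kb from Slc2a3, a glucose transporter gene (chr6:122810753-122811585). Another was 1.49 kb from Nr4a3, an immediate early nuclear receptor gene (chr4:48042849-48043589). Others lay near Supt4a, Ubald2, Zfp395, Slc38a2 and Irf8, and 2 near the predicted gene Gm19696. No member lacked a gene within 50 kb.

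The 364 regions were spread over 360 genes and over all autosomes. Only Gm19696, Sertad2, Supt4a and Ptma had 2 members each, and none had more. By share of its regions, chromosome 19 was highest (20 of 934, 2.14%) and chromosome 13 the lowest autosome (7 of 1202, 0.582%). Chromosome 11 held most in number, at 38 of 2101.

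Chromosome X held none of the members among its 634 regions, and 7 of its regions were read in 17 libraries. The X region with the highest level in patches, at Bcap31, had 137 normalized CPM, below the members' median of 155, and had 0 counts in B library 3 and T library 3 of 100 nuclei. By width, 14 of 634 X regions (2.21%) passed 750 bp against 3.70% of all nuclear regions. The sources used here do not give the sex of the mice, and its part in this count was not tested.

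Transfer RNA genes, which RNA polymerase III transcribes in all cells, were few among the members: 4 (1.10%) overlapped at least 1 of them against 0.277% of nuclear regions. A region on chromosome 3 (chr3:19627872-19629070) held 4 of them. Near-identical tRNA copies can share reads, so these levels are uncertain.

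The gene lists, grouped by function, were chosen with earlier results of these data known, so their shares are descriptions set beside the 1.33% of all nuclear regions. A region can count on more than 1 list, as those at B2m, at Psmb9 and Tap1, and at Brd2 did. Chromatin regulators gave 10 members of 174 regions (5.75%), among them Ep300, Dnmt1, the maintenance DNA methyltransferase, Brd2, a reader of acetylated histones, and Kmt2e. Cytoskeletal and housekeeping genes gave 6 of 83 (7.23%), cell cycle genes 5 of 101 (4.95%), splicing genes 6 of 160 (3.75%), general transcription genes 4 of 102 (3.92%), proteasome and ubiquitin genes 4 of 80 (5.0%) and translation factors 3 of 65 (4.62%). Nuclear genes of oxidative phosphorylation gave 3 of 91 (3.30%) and histone genes 1 of 47 (2.13%). Regions over a start site are members more often, 271 of 7234 in the whole table. Among such regions 3.17% were members on the oxidative phosphorylation list and 3.12% on the histone list. On the other lists of this paragraph the share was 7.04% to 16.1%.

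Cytosolic ribosomal protein genes, which are strongly expressed in all cells, gave 1 member of 122 regions (0.820%). It lay at an end of Rpl30 (chr15:34443153-34443883), at 60.3 ± 12.0 normalized CPM in B patches and 59.3 ± 16.3 in T patches. Their regions had a median width of 362 bp and a median level of 33.7 normalized CPM. Gapdh, a gene often taken as constant, had 3 regions and no member, with 17 libraries at most. Actb, which encodes beta-actin, had 1 member of 8 regions, inside the gene and 1.75 kb from its end (chr5:142905806-142906229), at 172 ± 53.4 in B and 171 ± 35.9 in T.

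Genes on the lists of lymphocyte identity had no member. None of 95 regions at B cell identity genes and none of 89 at T cell identity genes was read in all libraries. Those regions were narrow and weak, with median widths of 190 and 172 bp and median levels of 16 and 14.7 normalized CPM, against 782 bp and 155 for the members. The best read region at Cd79a, of the B cell receptor, was read in 13 libraries, at Pax5 in 14, at Cd3e, of the T cell receptor complex, in 11, at Bcl11b in 11 and at Tcf7, a T cell transcription factor, in 15. Over the whole lists a B identity region was read in 16 libraries at most and a T identity region in 17, which 3 of the 89 reached. With 1.33% of all nuclear regions read in all libraries, lists of this size would hold few members at the background share. In patches 20 of the 95 B regions passed the test, with a list median of 1.92 (log2, B over T). Of the 89 T regions 17 passed, with a median of −2.08, where 2.27% of all regions tested passed. The lists were chosen with earlier results of these data known, so these values are no independent check of the labels. Regions at genes of macrophages (11), dendritic cells (13), NK cells (15), red cells and megakaryocytes (3) and stroma (6) held no member, and no region was assigned to a neutrophil gene.

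Immune genes with a member included those of antigen presentation by all nucleated cells. MHC class I and interferon genes gave 4 of 48 regions (8.33%): B2m, the light chain of MHC class I, H2-D1, Ifnar1 and the promoter of Psmb9 and Tap1. At B2m (chr2:122147356-122147810) B patch libraries 1 to 5 held 125, 105, 62.8, 121 and 72.2 normalized CPM, and T patch libraries 88.6, 71.2, 94.6, 86.0 and 83.0. The groups overlapped, with a log2 fold change of 0.20 ± 0.27 (SE). Coro1a, a leukocyte actin regulator, was the 1 member of 192 regions at pan-leukocyte genes (0.521%), and Ptprc, which encodes CD45, had none of 3.

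Immediate early genes gave 4 of 88 (4.55%): Jun, Jund, Klf2, which keeps lymphocytes quiescent, and Nr4a3. NF-kB and NFAT genes gave 2 of 80 (2.50%): Relb and Nfkbia. MHC class II genes gave 2 of 34 (5.88%), at H2-DMa and between H2-DMa and Brd2. The latter is the Brd2 region already counted among chromatin regulators. At the H2-DMa region B patches held 191 ± 70.8 and T patches 206 ± 34.1. That compares with a median log2 fold change of 1.83, B over T, over all 34 regions. No member of any list passed the test between B and T in patches, where 2.27% of all regions tested did. The lists held few members, so that share would give few calls or none among them. The lack of calls therefore does not set these genes apart from other regions.

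Per kilobase of region the highest levels in patches were at Add3 (541 normalized CPM per kb), Tpst2 (515), Izumo4 (471), Ubxn6 (456), Lnpep (427), Tle4 (426), Sp1 (413) and Khsrp (408). The median over members was 197 per kb and over all nuclear regions 70.4. At Add3, which encodes an adducin of the membrane skeleton (chr19:53142142-53142942), B patch libraries 1 to 5 held 548, 308, 511, 572 and 483 normalized CPM. T patch libraries held 290, 290, 490, 396 and 438. The ranges overlapped. At Lnpep, an aminopeptidase gene whose region had the highest level of all nuclear regions before division by length (chr17:17624292-17625539), B patches held 616, 741, 527, 369 and 454, and T patches 543, 479, 550, 647 and 403. Sp1 encodes a transcription factor that binds GC boxes, and its own promoter stood at 534 ± 132 in B and 423 ± 157 in T (chr15:102405275-102406434).

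The members were even between B and T cells. In patches the median absolute log2 fold change was 0.20 over the 364 against 0.57 over all nuclear regions tested. B and T lay within 1.5-fold of each other in 339 (93.1%) against 51.1%, and beyond 2-fold in 7 (1.92%) against 30.8%. The coefficient of variation over the 10 patch libraries, B and T together, had a median of 28.6% against 71.3%. Signs were mixed, with 207 higher in B and 157 higher in T and a median log2 fold change of 0.04, and with library size as the only scaling these turned to 132 and 232 and −0.12. The rule bears on these values, since a region with little opening in either cell type is seldom read in every library, so they describe the choice and support nothing further.

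At equal level, regions outside the rule were as even or slightly more so by fold change, and from 60 normalized CPM on by coefficient of variation too. At 30 to 60 normalized CPM the 2 measures went opposite ways. There the 14 members had a median absolute log2 fold change of 0.47 and a coefficient of variation of 35.8%, and the others 0.36 and 44.0%. At 150 to 250 normalized CPM the 140 members had a median absolute log2 fold change of 0.20 and a coefficient of variation of 26.2%, and the other regions of that level 0.18 and 25.5%. At 60 to 100 normalized CPM the values were 0.34 and 36.3% for 53 members and 0.26 and 33.8% for the others. The 266 other regions at or above the members' median level had a median absolute log2 fold change of 0.17, a coefficient of variation of 25.2%, and 95.5% within 1.5-fold. Those 266 were also alike in width, at a median of 838 bp, and a start site lay inside 80.1%.

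**Figure D4:**
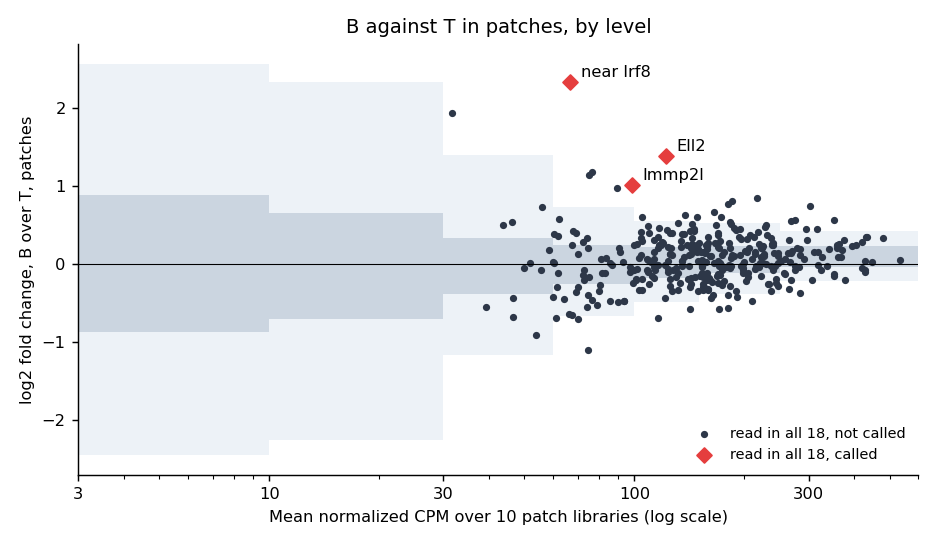
Each point is 1 of the 364 regions, by its mean normalized CPM over 10 patch libraries (log scale) and its log2 fold change of B over T. Dark and light bands hold the middle 50% and 90% of other nuclear regions in each class of level, regions under 10 as 1 class, and the 3 called regions are red diamonds, from 1.01 at Immp2l to 2.33 near Irf8.

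The lowest coefficient of variation was 11.9%, at AW549877, a gene known only by a clone name (chr15:3995393-3996342), where the patch libraries ran from 181 to 261 normalized CPM. Among members at genes with a name of their own the 8 most even were at Crem, a cAMP-responsive transcription factor gene (12.0%), Nfkbia (12.8%), Azin1, a regulator of polyamine synthesis (13.1%), Atp2b1, a calcium pump (13.2%), Nmt2, an enzyme that attaches myristate to proteins (13.4%), Leprot (14.1%), Klf13 (14.4%) and Cap1, an actin-binding protein (15.1%). Nfkbia encodes the inhibitor that holds NF-kB in the cytoplasm (chr12:55491817-55492834). Its B patch libraries 1 to 5 held 177, 145, 176, 138 and 172 normalized CPM and its T patch libraries 155, 200, 181, 151 and 199. At Nmt2 (chr2:3283633-3284382) B patches held 236, 219, 236, 244 and 303, and T patches 227, 249, 257, 197 and 299. Neither cell type stood above the other at Nfkbia and Nmt2. They were picked for low variation over B and T patch libraries together, so the choice itself favoured overlap.

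At 100 nuclei the libraries scattered widely at Nfkbia and Nmt2, and less so at others of the 8. Nfkbia ran from 15.5 to 358 in the 4 B libraries and from 8.04 to 263 in the 4 T libraries. Nmt2 ran from 102 to 522 in B and from 61.7 to 370 in T. Azin1 ran from 63.4 to 325 in B but only from 89.9 to 105 in T. Scaling was done separately by capture size, so levels at 100 nuclei are not set against those in patches. Across the 364 regions the log2 mean levels of the 2 capture sizes went together, with Pearson's r of 0.821 and Spearman's rho of 0.833, a description over regions that share libraries and widths.

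Between B and T patches 3 of the 364 regions passed the test (0.824%), all higher in B, where 2.27% of all 25712 regions tested passed 1.22% with B higher and 1.05% with T higher (edgeR quasi-likelihood test, adjusted p under 0.05). All 364 had passed the filter on low counts. At equal level the called share was not steadily lower in members. At 30 to 60 normalized CPM it was 0 of 14 members against 5.13% of other regions. At 60 to 100 it was 3.77% against 2.16%, and at 100 to 150 it was 0.99% against 0.638%. From 150 on it was 0 in both. At an unadjusted p under 0.05 were 25 members (6.87%) against 12.7% of all, and the groups lay fully apart in 17 (4.67%), 14 with B higher and 3 with T higher, against 8.03% of all, 4.33% with B higher and 3.69% with T higher. In captures of many nuclei, fewer nuclei with an open region and less cutting per nucleus cannot be told apart.

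The region with the largest difference lay 10.8 kb from Irf8, a transcription factor of B and myeloid cells, and outside any gene (chr8:120725083-120725606). The nearest annotated gene was the predicted Gm18709, 1.60 kb away. B patch libraries 1 to 5 held 130, 73.1, 117, 132 and 105 normalized CPM and T patch libraries 8.10, 14.8, 13.6, 35.4 and 38.5. Every B library lay above every T library, with a log2 fold change of 2.33 ± 0.40 (SE; edgeR adjusted p = 0.00479). No sequence is shown for it, as the promoter table covers start sites only.

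Ell2 encodes an elongation factor of RNA polymerase II known for its part in immunoglobulin secretion by plasma cells, and its promoter was open in both cell types (chr13:75707173-75707836). B patch libraries held 216, 145, 188, 194 and 138 normalized CPM and T patch libraries 89.1, 41.6, 55, 49.6 and 104. The log2 fold change was 1.38 ± 0.29 (SE; edgeR adjusted p = 0.0142), with no overlap. Immp2l, a gene for a peptidase of the inner mitochondrial membrane (chr12:41023862-41024475), had 106, 145, 145, 139 and 122 in B and 81.5, 46.4, 69.3, 70.8 and 57.3 in T. Its log2 fold change was 1.01 ± 0.26 (SE; edgeR adjusted p = 0.0401), the weakest of the 3 calls. It no longer passed with library size as the only scaling (adjusted p = 0.0897), with a replicate block (adjusted p = 0.0755) or without any 1 of 9 of the 10 patch libraries.

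**Figure D5:**
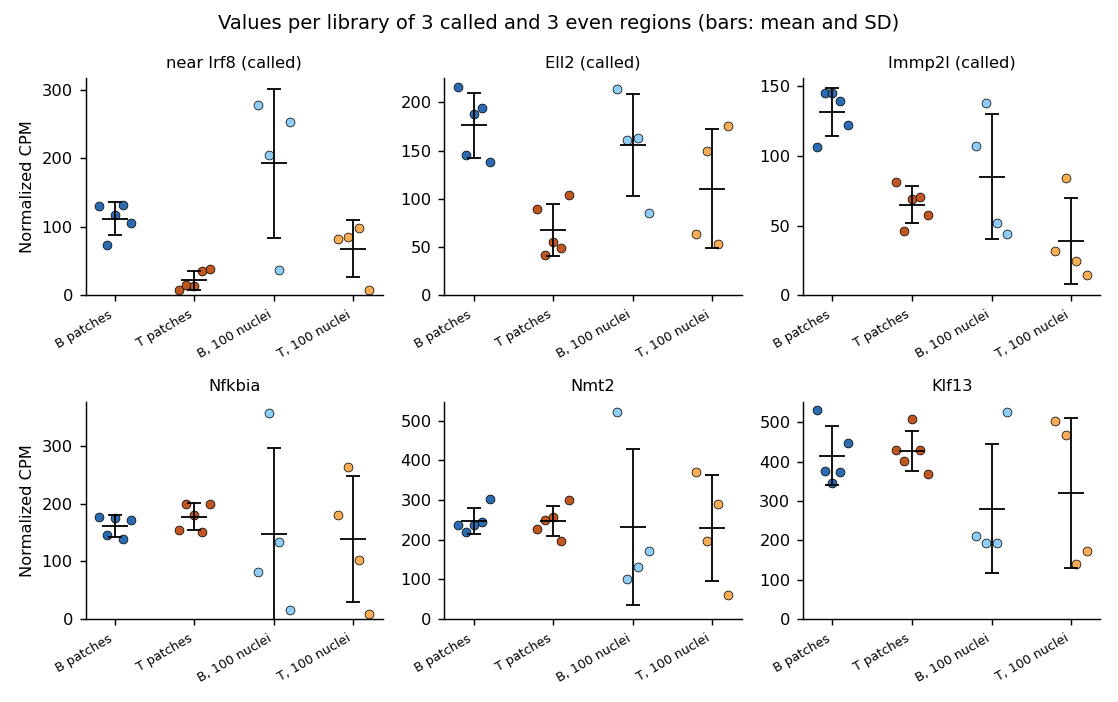
Points are normalized CPM in each library, scaled within a capture size, for 3 regions called between B and T patches (top) and 3 even regions (bottom), with group means and SD, bars being cut at 0. In patches B and T are apart at the 3 called regions, for example 138 to 216 against 41.6 to 104 at Ell2. They overlap at the even ones, and at 100 nuclei in all 6. Both sets were picked by their patch values.

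A further 4 members differed by more than 2-fold in patches without passing. The region near Gm38908, 49.4 kb from Etv6, had a log2 fold change of 1.94 ± 0.61 (SE; edgeR adjusted p = 0.106), Gdf15 1.18 ± 0.35 (0.0875) and Pold4, a subunit gene of DNA polymerase delta, stood at 104 in B and 46.8 in T (0.112). One of the 2 regions near Gm19696 stood at 47.4 in B and 102 in T, a log2 fold change of −1.10 ± 0.39 (0.176).

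The number called depended on the fit. DESeq2 called 15 of the 364, 13 higher in B and 2 higher in T, and 2120 of all regions, where edgeR called 583. A joint fit of all 18 libraries called 0 of them and 0 of all regions. Without B patch library 2 the count was 5 with 673 of all regions, without both patch libraries numbered 2 it was 9 with 1156 of all, and without any other 1 patch library it was 2.

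At 100 nuclei none of the 364 passed between B and T (edgeR, adjusted p under 0.05), where 0.0156% of regions did, all of them mitochondrial. None had an unadjusted p under 0.05 against 5.5% of all regions tested, and DESeq2 called 0. An unadjusted p under 0.05 was also absent from regions read in 17 libraries and from the 266 other regions at or above the members' median level. The largest log2 fold change of a member, 3.75 ± 1.97 (SE) at Zpbp2, had an unadjusted p of 0.0567 (edgeR). B libraries there ran from 138 to 367 normalized CPM and T libraries from 4.94 to 29.2. With errors this wide, the lack of calls does not show that the regions were even. The groups lay fully apart in 4 members (1.10%), 3 with B higher and 1 with T higher, against 1.18% of all, 1.05% with B higher and 0.124% with T higher. The median absolute log2 fold change was 0.46 over the members and 1.73 over all nuclear regions. It was 0.66 over regions read in 17 libraries and 0.62 over the 266. The rule asked for a count in each of these 8 libraries, so these values describe the choice. The region near Irf8 ran from 36.7 to 278 in B and from 8.04 to 98.8 in T, a log2 fold change of 1.49 with overlap. At Ell2 it was 0.50 and at Immp2l 1.13, also with overlap. The sign was the same at both capture sizes in 207 of the 364 (56.9%), a share not taken over all regions. Signs at 100 nuclei depended on the scaling. The members' median log2 fold change there was 0.12, and it was −0.55 with library size alone and −0.07 with DESeq2. Whether the B and T difference itself differed between capture sizes was not tested.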

How the data were processed

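Counts per region were deposited by the authors as 1 table of 27396 regions and 18 columns, unnormalized whole numbers. The submitters' processing notes name build mm10, the aligner Bowtie2 2.4.5, the peak caller MACS2 2.2.7.1, Trimmomatic 0.36 and Picard, without saying how each was run. How regions were called, whether duplicate reads were removed and whether cut positions were shifted is therefore unknown. A count of 0 or 1 in a library depends on such steps. Coordinates are the file's, and whether they start at 0 or 1 is not given.

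Columns were matched to libraries by name. Tests were made in R 4.3.3 with edgeR 4.0.16 (TMM, quasi-likelihood, Benjamini-Hochberg at 0.05) on 25712 regions past filterByExpr (minimum count 10), B against T within each capture size, on the whole table, without covariates. DESeq2 1.42.0, library size alone, no mitochondrial regions, no filter, the replicate number as a block, a joint fit, each library left out, and other rules for the members were alternatives. Two-sided tests were used throughout. Regions took the gene with the nearest end or start site within 50 kb (95.7% of nuclear regions; RefSeq, GRCm38.p6), known genes before predicted ones where both were at hand.

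The members and gene lists were chosen with earlier results of these data known. Named regions were those of the lists (up to 4 each, by level), the 8 highest per length, the 8 lowest coefficients of variation at genes not known only by a predicted or clone name, all called, the 3 widest, 3 narrowest and 3 on each side of the rule, and a fixed set of marker genes. Members far from gene ends or beyond 2-fold, tRNA and microRNA genes, Hspd1 and Hspe1, and the X chromosome were singled out after their values were seen. Library totals ran from 319481 to 7343204 counts; no molecular identifiers are stated, so a count need not be its own molecule.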

Additional observations from a re-analysis of the deposited data

Results flagged for a closer look

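In 4 cases 1 library lay far from the rest of its group by Dixon's test at the 95% level, among the regions of highest level and of lowest variation. At Tpst2, a tyrosine sulfation enzyme gene, T patch library 4 was lowest at 135 normalized CPM, where the other T patch libraries held 379 to 450, and B library 3 of 100 nuclei was lowest at 237, where the others held 491 to 506. At Nmt2, B library 1 of 100 nuclei was highest at 522 against 102 to 171. At Klf13, B library 4 of 100 nuclei was highest at 525 against 192 to 210. Chance alone marks about 1 group in 20 in this way. Each region looked at has 4 groups, so several such cases can arise by chance, and the 4 are only listed.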

How the results depend on the processing

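The calls moved with the fit more than the description did. Of the 364 regions, 3 were called between B and T patches, 15 with DESeq2, 0 with a joint fit of 18 libraries, 9 without both patch libraries numbered 2 (chosen after seeing the data), and 2 to 5 without 1 library; of all regions these fits called 583, 2120, 0, 1156 and 259 to 673. Library size alone gave 2, and no filter or no mitochondrial regions 3 each. That scaling moved the median log2 fold change of all regions from −0.03 to −0.19 and of the members from 0.04 to −0.12. The calls near Irf8 (2.12 to 2.63 on the log2 scale) and at Ell2 (1.23 to 1.58) held without any 1 library. The highest edgeR adjusted p of these fits was 0.0195 near Irf8 and 0.0493 at Ell2, so Ell2 held narrowly. At 100 nuclei 0 were called under every alternative but the joint fit, which called 1 of them and 6954 of all regions; leaving out 1 library gave 0 to 0. The cause was not tested.

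Replicate numbers showed little pairing of the libraries: same-numbered B and T libraries had correlations of deviations from −0.0118 to 0.0327. Only B libraries numbered 2 correlated best with their own number, in patches and at 100 nuclei. Correlations this small do not settle whether same-numbered libraries were handled together. The fit with a replicate block called 2 of the members in patches, losing Immp2l, and 0 at 100 nuclei, and 215 of all regions against 583.

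The rule decided how many regions there were. It gave 1627 regions without T libraries 3 and 4 of 100 nuclei and 1328 at 17 of 18 libraries, with median widths of 675 and 694 bp in place of 782. The share near a gene end was 86.8% at 1 kb, 82.7% at 0.5 kb and 92.9% at 5 kb. The median absolute log2 fold change was 0.196 to 0.231 without 1 library. Of 88 alternatives for the 8 most even regions at named genes, 87 stayed within 1.5 times. With so few counts at 100 nuclei, a region with 0 counts in a library may be open there.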

Other observations

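Among the members was a region of 452 bp at Mir150, the gene of a microRNA known for its abundance in mature lymphocytes (chr7:45121352-45121804). B patch libraries 1 to 5 held 101, 140, 65.5, 71.8 and 87.9 normalized CPM there, and T patch libraries 88.1, 116, 139, 125 and 118. The groups overlapped, with a log2 fold change of B over T of −0.33 ± 0.27 (SE; edgeR adjusted p = 0.749). The region ends within the stretch that encodes the 3p mature form, shown with its seed, bases 2 to 8, in capitals (RefSeq, GRCm38.p6, chr7:45121798-45121819, plus strand).
mmu-miR-150-3p: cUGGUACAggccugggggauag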
